A study of Mus musculus with 20 samples.

Results

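The comparison covers oocytes labelled Btg4-/- against wild type at metaphase II (MII), where the ovulated mouse egg is arrested until fertilization. Members were chosen by level alone: every gene with a mean of 1 FPKM or more over the 2 libraries of either MII group, which gave 10033 genes of 23309 symbols. FPKM is the number of sequenced fragments scaled by transcript length and library size, so levels can be compared between genes per length. Just inside the threshold stood Plaur and Lyrm7 (1.0 FPKM in their higher group), and just outside it Gne and D630037F22Rik (0.999 and 0.998).

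The groups are Btg4-/- MII oocytes of the ICR strain (2 libraries) and wild-type MII oocytes of the same strain (2 libraries). Per the labels, each sample held 60 oocytes from females 21 to 23 days old that had been injected with PMSG and hCG, the hormones used to stimulate follicles and trigger ovulation. The allele is not given. The series holds 20 libraries. The others of the same experiment (GV oocytes, zygotes and 2-cell embryos of both genotypes, 2 libraries each) entered the fit and supply the values given for other stages, and 1 wild-type MII library of a separate Erk experiment is quoted without a test. Whether the 2 libraries of a group hold oocytes of different females is not stated, and the p-values cover only the spread between libraries.

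A fully grown mouse oocyte stops transcription and lives on stored mRNA until the embryonic genome is switched on. During meiotic maturation, from the germinal vesicle (GV) stage to MII, part of this store is deadenylated and destroyed, while another part, dormant at GV, gains a long poly(A) tail and is translated. BTG4 is an adaptor that brings the CCR4-NOT deadenylase to maternal mRNAs in maturing oocytes. The libraries were made from purified mRNA; where that purification works through the poly(A) tail, a change in tail length and a change in amount cannot be told apart, nor can fewer molecules per cell and a smaller share of the library.

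Btg4 itself (chromosome 9, 50924106 to 50927805, mm9) stood at 172 and 191 FPKM in the labelled Btg4-/- libraries, against 415 and 406 FPKM in wild type, with no overlap between the groups (log2 change -1.18, SE 0.116, adjusted p = 2.61e-06). At GV it was at 1980 and 1881 FPKM in labelled Btg4-/- and 1450 and 1673 FPKM in wild type. A value summed over the gene cannot show the loss of part of it, and the gene was not lower at GV, so the labels are checked only in part and the group is called "labelled Btg4-/-" throughout. Estimated depth of the 4 MII libraries was 5190000 and 3760000 fragments in the labelled Btg4-/- libraries and 4280000 and 5120000 in wild type. The deposited FPKM lay above its own deposited interval for 24.8% and 21.3% of loci over 10 FPKM in the labelled Btg4-/- libraries and for 16.7% and 19% in wild type. Using the interval's midpoint instead left every call named here in place. The oocyte marker list was at 2.46% and 2.35% of summed FPKM in the labelled Btg4-/- libraries and at 2.51% and 2.44% in wild type. In FPKM the list summed to 11717 and 11107, against 8987 and 9258 in wild type. All genes together summed to 477225 and 472082 FPKM in the labelled Btg4-/- libraries and 357517 and 379914 in wild type. Shares of FPKM divide by these unequal sums, whereas the log2 changes as reported do not.

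Most of the MII transcriptome differed between the genotypes. Of the 10033 genes, 3529 were higher in the labelled Btg4-/- libraries (35.2%) and 2825 lower (28.2%), and 3679 did not pass (limma on log2(FPKM + 1), Benjamini-Hochberg adjusted p under 0.05). Over all 12311 genes that entered the fit, 3585 were higher (29.1%) and 2870 lower (23.3%). Changes were large: 1239 members rose and 758 fell by at least 4-fold, and 96 rose and 24 fell by at least 16-fold. The median change was 0.22 over the members and 0.09 over all genes tested, on the log2 scale that all changes below use. Pearson r across genes was 0.979 between the 2 labelled Btg4-/- libraries, 0.968 between the 2 wild-type ones and 0.777 to 0.801 between genotypes.

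**Figure D1:**
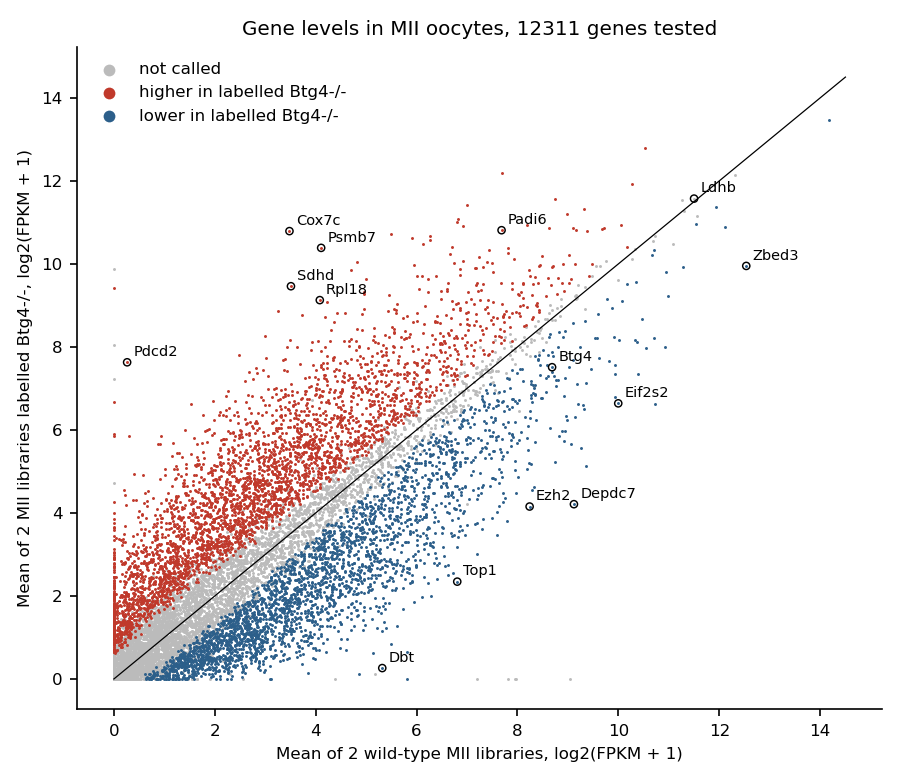
Each point is a gene, placed by its mean level in the 2 labelled Btg4-/- MII libraries (vertical axis) and the 2 wild-type MII libraries (horizontal axis), both as log2(FPKM + 1); red genes were called higher, blue genes lower and grey genes were not called. The 14 circled genes are described in the text, and the line marks equal levels: Cox7c and Psmb7 lie far above it and Top1, Depdc7 and Dbt far below.

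Among the largest rises of named genes, with gene models left out, were transcripts of the respiratory chain, the proteasome and the ribosome. Cox7c, a small subunit of cytochrome c oxidase, was at 1785 and 1753 FPKM in the labelled Btg4-/- libraries, against 15.3 and 4.98 FPKM in wild type (log2 change 7.49, SE 0.333, adjusted p = 3.20e-09). At GV it had been at 92.4 and 72.2 FPKM in labelled Btg4-/- and 168 and 184 FPKM in wild type, so the labelled Btg4-/- MII level also stood above that of every GV library. Psmb7, a catalytic subunit of the 20S proteasome (chromosome 2, 38443566 to 38499426, mm9), was at 1295 and 1379 FPKM in the labelled Btg4-/- libraries, against 12.2 and 20.3 FPKM in wild type (log2 change 6.32, SE 0.209, adjusted p = 4.53e-10). Its GV values were 292 and 248 FPKM in labelled Btg4-/- and 216 and 199 FPKM in wild type.

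Other rises were of genes whose level in labelled Btg4-/- MII oocytes was nearer to that at GV. Sdhd, a membrane anchor of succinate dehydrogenase (chromosome 9, 50404445 to 50411954, mm9), was at 712 and 696 FPKM in the labelled Btg4-/- libraries, against 10.6 and 10.1 FPKM in wild type (log2 change 5.95, SE 0.105, adjusted p = 3.34e-12). At GV it was at 586 and 506 FPKM in labelled Btg4-/- and 548 and 524 FPKM in wild type. Psmb1, another core proteasome subunit, was at 479 and 458 FPKM in the labelled Btg4-/- libraries, against 8.59 and 8.5 FPKM in wild type (log2 change 5.62, SE 0.190, adjusted p = 5.06e-10). Its labelled Btg4-/- MII values were below those at GV, 948 and 872 FPKM in labelled Btg4-/- and 724 and 661 FPKM in wild type, while the wild-type MII values were lower still. Rpsa, a protein of the small ribosomal subunit, was at 225 and 217 FPKM in the labelled Btg4-/- libraries, against 5.6 and 3.62 FPKM in wild type (log2 change 5.33, SE 0.256, adjusted p = 5.52e-09). The naming rule took only genes whose groups did not overlap at MII, so the separation of these genes is given by the choice.

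Several of the largest rises had wild-type values at or near 0. Pdcd2, which assists the assembly of the small ribosomal subunit (chromosome 17, 15658539 to 15664265, mm9), was at 181 and 213 FPKM in the labelled Btg4-/- libraries, against 0.400 and 0 FPKM in wild type (adjusted p = 8.06e-11). Tmem126a, an assembly factor of complex I, was at 99.4 and 104 FPKM in the labelled Btg4-/- libraries and listed at 0 in both wild-type libraries (adjusted p = 4.57e-07). Atp6v0c, the proteolipid of the vacuolar ATPase, was at 75.6 and 37.5 FPKM in the labelled Btg4-/- libraries, against 0.00142 and 0.00120 FPKM in wild type (adjusted p = 4.15e-05). No fold is given for genes with a library at or near 0 in their lower group, where it would rest on the pseudocount. In the separate wild-type MII library of the Erk experiment Pdcd2, Tmem126a, Cox7c and Psmb7 were listed at 0. So were 24 members of the mitochondrial ribosome and 6 of the large ribosomal subunit in that library, so no level is read from a 0 there. The small nucleolar RNA Snora47 met the naming rule, at 309 and 1069 FPKM in the labelled Btg4-/- libraries and listed at 0 in both wild-type libraries (adjusted p = 0.018). Its labelled Btg4-/- libraries differed severalfold from each other, and the FPKM of so short a transcript nested in the region of other genes is uncertain. Its adjusted p was 0.0984 without labelled Btg4-/- library 2, 0.0689 without wild-type library 1 and 0.073 without wild-type library 2.

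**Figure D2:**
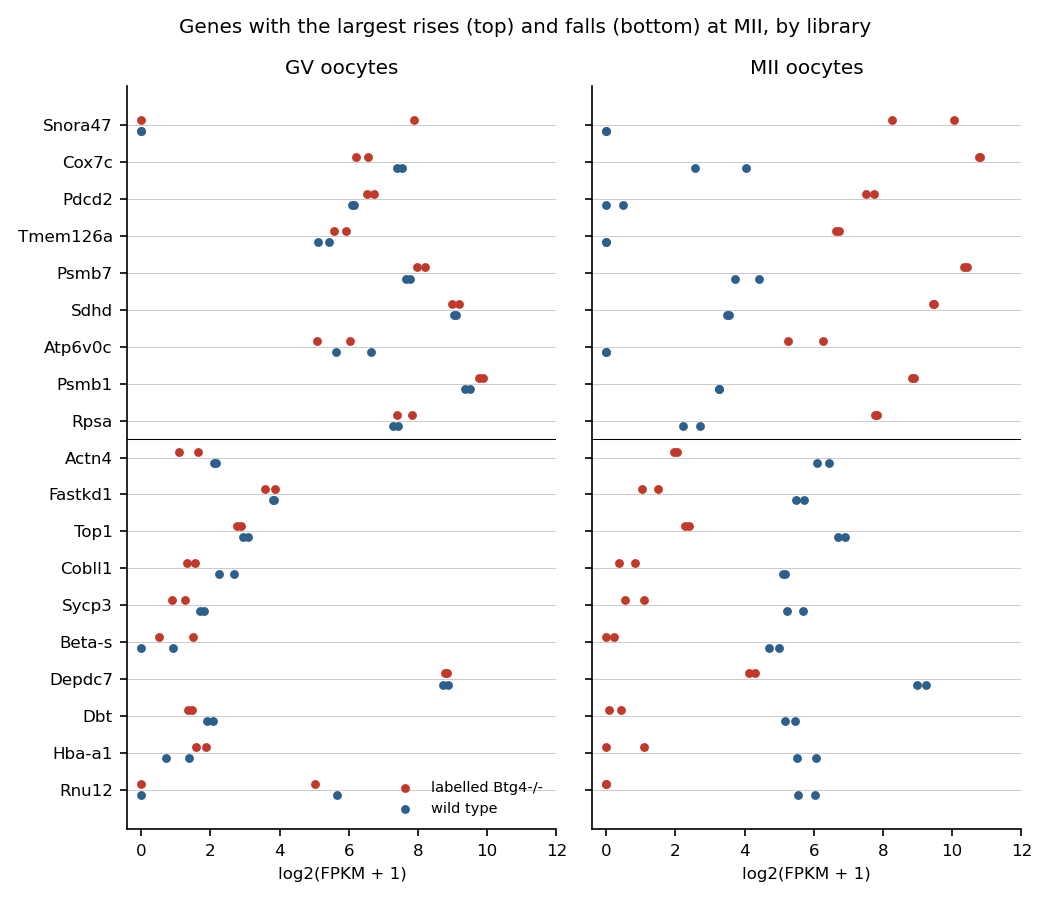
Level of 9 genes among the 10 largest rises (above the line) and of the 10 largest falls (below it) that the naming rule gave, gene models left out, in every GV (left) and MII (right) library, as log2(FPKM + 1); red points are libraries labelled Btg4-/- and blue points wild type, 2 of each per stage. The rule asked for groups that do not overlap at MII, so the separation of the colours there is given by the choice. At GV the points of Depdc7 lie between 423 and 467 FPKM on the linear scale.

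The largest falls were of transcripts at varied levels in wild-type MII oocytes, by the naming rule 10 FPKM or more, and much lower in labelled Btg4-/- ones. Their GV levels varied as well. Depdc7, a DEP-domain protein gene (chromosome 2, 104561944 to 104582958, mm9), was at 18.6 and 16.4 FPKM in the labelled Btg4-/- libraries, against 507 and 602 FPKM in wild type (log2 change -4.91, SE 0.164, adjusted p = 4.75e-10). Its GV values were 458 and 441 FPKM in labelled Btg4-/- and 423 and 467 FPKM in wild type, so among the GV and MII libraries only the labelled Btg4-/- MII ones were low. Nup54, of the central channel of the nuclear pore, had the same order of levels, 2.85 and 6.46 FPKM in the labelled Btg4-/- libraries, against 87.5 and 109 FPKM in wild type at MII (log2 change -4.20, SE 0.250, adjusted p = 3.07e-08) and 56.8 and 64.5 FPKM in labelled Btg4-/- and 53 and 51.6 FPKM in wild type at GV.

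Top1, DNA topoisomerase I (chromosome 2, 160471633 to 160548499, mm9), was at 4.29 and 3.87 FPKM in the labelled Btg4-/- libraries, against 103 and 118 FPKM in wild type (log2 change -4.46, SE 0.172, adjusted p = 1.08e-09). At GV it was at 6.34 and 5.84 FPKM in labelled Btg4-/- and 6.68 and 7.5 FPKM in wild type, so here only the wild-type MII ones were high. Sycp3, an axial element protein of meiotic chromosomes, was at 1.13 and 0.444 FPKM in the labelled Btg4-/- libraries, against 36.7 and 50.9 FPKM in wild type (adjusted p = 7.32e-08). Its GV values were 0.848 and 1.4 FPKM in labelled Btg4-/- and 2.49 and 2.22 FPKM in wild type. Dbt, the acyltransferase core of the branched-chain ketoacid dehydrogenase (chromosome 3, 116215997 to 116252899, mm9), was at 0.334 and 0.0653 FPKM in the labelled Btg4-/- libraries, against 34.7 and 43.2 FPKM in wild type (adjusted p = 2.36e-08). Actn4, an actin crosslinker, was at 3.15 and 2.9 FPKM in the labelled Btg4-/- libraries, against 67 and 86.1 FPKM in wild type (log2 change -4.26, SE 0.263, adjusted p = 4.12e-08). Cobll1 (0.780 and 0.298 FPKM against 33.8 and 34.7 FPKM in wild type) and Fastkd1 (1.06 and 1.83 FPKM against 43.8 and 51.4 FPKM in wild type), a gene of the FASTK family of mitochondrial RNA-binding proteins, were high in wild-type MII alone among the 4 GV and MII groups. The wild-type MII library of the Erk experiment held 282 FPKM of Depdc7, 104 of Top1, 65.5 of Cobll1, 24.2 of Actn4 and 9.93 of Sycp3, but 2.94 of Dbt. That library differed widely from both groups. Its Pearson r across genes was 0.704 and 0.708 with the wild-type MII libraries and 0.463 and 0.465 with the labelled Btg4-/- ones. All are below the 0.777 to 0.801 between genotypes.

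Of the other 3 largest falls, 2 are haemoglobin genes. Hba-a1 was at 1.15 and 0 FPKM in the labelled Btg4-/- libraries, against 66.1 and 44.5 FPKM in wild type (adjusted p = 1.18e-06). Beta-s, an adult beta-globin gene, was at 0.171 and 0 FPKM in the labelled Btg4-/- libraries, against 31.1 and 25.1 FPKM in wild type (adjusted p = 4.70e-06). In labelled Btg4-/- MII oocytes the 8 blood cell markers summed to 1.53 and 0 FPKM, against 85.0 and 50.3 FPKM in wild type, and they summed to 0.738 to 4.77 FPKM in the GV libraries. Their part in the falls was not tested. All 8 markers were listed at 0 in the wild-type MII library of the Erk experiment, where a 0 sets no level. Rnu12, the U12 RNA of the minor spliceosome, was at 0 FPKM in both labelled Btg4-/- libraries, where it is listed at 0, against 64.3 and 46.1 FPKM in wild type (adjusted p = 0.0204); it was listed at 0 in 1 library of each genotype at GV and its adjusted p was 0.0774 without labelled Btg4-/- library 1, 0.0777 without labelled Btg4-/- library 2, 0.0856 without wild-type library 1 and 0.0684 without wild-type library 2.

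Nearly the whole set of ribosomal protein mRNAs was higher. Of 49 measured proteins of the large subunit 47 were higher and 0 lower, with a median change of 2.44, and of 30 of the small subunit 24 were higher and 0 lower, with a median of 2.16. Together with the lists below, these counts stand against 35.2% higher and 28.2% lower over all members. Rpl18 was at 589 and 528 FPKM in the labelled Btg4-/- libraries, against 19.1 and 12.8 FPKM in wild type (log2 change 5.07, SE 0.165, adjusted p = 3.83e-10). At GV it was at 748 and 642 FPKM in labelled Btg4-/- and 665 and 649 FPKM in wild type. Rpl5, which delivers 5S RNA to the large subunit, was at 267 and 297 FPKM in the labelled Btg4-/- libraries, against 15.7 and 15.2 FPKM in wild type (log2 change 4.10, SE 0.205, adjusted p = 7.25e-09), although its GV values were only 27.5 and 22.6 FPKM in labelled Btg4-/- and 21.5 and 20.5 FPKM in wild type. Rps3 (225 and 197 FPKM against 8.26 and 5.82 FPKM in wild type) and Rps27a (230.5 and 277 FPKM against 14.3 and 5.36 FPKM in wild type) rose by 4.74 and 4.69. The members that did not pass include Rpl9 (0.856 and 3.57 FPKM against 3.19 and 0.581 FPKM in wild type). Summed over the large subunit, these mRNAs made 3.09% and 3.17% of FPKM in labelled Btg4-/- MII oocytes, against 0.790% and 0.718% in wild type. At GV the sum was 4.50% and 4.07% in the labelled Btg4-/- libraries and 4.23% and 4.14% in wild type. Reads of ribosomal protein genes can be shared with their processed pseudogenes, so single values are uncertain. The deposited FPKM of most of these genes lay above its own interval in at least 1 MII library. With every such gene left out, 14 large-subunit members were tested and 12 were higher, and of 5 small-subunit members 3 were higher. Corrected for coding length, the medians of the 2 lists were 1.91 and 1.57.

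Nuclear-encoded mitochondrial genes were mostly higher. Complex I had 30 higher and 1 lower of 36 members (median change 2.40, 6 of 9 higher with genes above their interval left out), complexes II and III with cytochrome c 11 and 1 of 14 (1.94), complex IV 11 and 0 of 17 (1.5) and ATP synthase 14 and 0 of 16 (1.71). Mitochondrial ribosomal proteins had 57 and 1 of 74 (1.72, 27 of 37 higher with genes above their interval left out), and the import machinery 15 and 1 of 19 (2.10). With such genes left out, 2 of 4 members of complexes II and III, 2 of 5 of complex IV, 7 of 7 of ATP synthase and 5 of 8 of the import machinery were higher. Corrected for coding length, the list medians were smaller, at 1.88, 1.47, 1.05, 1.24, 1.29 and 1.39 in the order given. Cox17, the copper chaperone of cytochrome c oxidase, was at 1042 and 1058 FPKM in the labelled Btg4-/- libraries, against 27.5 and 26.9 FPKM in wild type (log2 change 5.22, SE 0.103, adjusted p = 6.37e-12). Tomm40, the import channel of the outer membrane, was at 94.2 and 101 FPKM in the labelled Btg4-/- libraries, against 2.0 and 1.74 FPKM in wild type (log2 change 5.10, SE 0.219, adjusted p = 2.59e-09). Mrpl54 was at 104 and 119.8 FPKM in the labelled Btg4-/- libraries, against 5.35 and 5.95 FPKM in wild type (log2 change 4.08, SE 0.156, adjusted p = 1.02e-09). The lower genes were single members. Ndufa10 of complex I was at 69.8 and 72.5 FPKM in the labelled Btg4-/- libraries, against 116 and 141 FPKM in wild type (log2 change -0.84, SE 0.167, adjusted p = 9.10e-04). Sdha, the catalytic subunit of succinate dehydrogenase (31.9 and 35.1 FPKM against 44.9 and 49.1 FPKM in wild type), Mrps9 (2.31 and 2.01 FPKM against 25.8 and 27.8 FPKM in wild type) and the import cochaperone Tomm34 (1.13 and 1.64 FPKM against 11.5 and 12.1 FPKM in wild type) were the others. Sdha missed the threshold without labelled Btg4-/- library 1 (adjusted p = 0.107), without wild-type library 2 (0.101) and with changes corrected for coding length (0.277). Atp5b, the catalytic subunit of ATP synthase, was at 309 and 273 FPKM in the labelled Btg4-/- libraries, against 294 and 316 FPKM in wild type and did not pass (log2 change -0.07, SE 0.126, adjusted p = 0.69). The tricarboxylic acid cycle had 12 higher and 4 lower of 18 (median 0.82), and glycolysis with lactate metabolism 10 and 2 of 14 (1.0). Aldoa, the muscle-type aldolase, was among the higher (89.4 and 89.8 FPKM against 10.6 and 9.18 FPKM in wild type; log2 change 3.06, SE 0.134, adjusted p = 2.97e-09) and Gapdh among the lower (57 and 42.6 FPKM against 128 and 124 FPKM in wild type; log2 change -1.34, SE 0.191, adjusted p = 6.43e-05).

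Proteasome, signalosome and tubulin genes also had more higher than lower members, while E2 ubiquitin-conjugating enzymes had 9 higher and 13 lower of 31 (median -0.06). The 20S proteasome core had 10 higher and 2 lower of 15 (median 1.57) and the 19S regulator with its relatives 12 and 5 of 23 (0.88). With genes above their interval left out, 2 of 3 core members were higher, and of 12 regulator members 5 were higher and 3 lower. Corrected for coding length, the medians were 1.18 and 0.89. Within the core, Psma7 was one of the 10 most abundant mRNAs and was lower, at 1314 and 2467 FPKM in the labelled Btg4-/- libraries, against 3386 and 5505 FPKM in wild type (log2 change -1.26, SE 0.292, adjusted p = 0.0027). Psma1 was at 104 and 102 FPKM in the labelled Btg4-/- libraries, against 98 and 118 FPKM in wild type and did not pass (log2 change -0.06, SE 0.122, adjusted p = 0.747), but passed as lower with quantile normalization (-0.46) and corrected for coding length (-0.41). The COP9 signalosome, which removes NEDD8 from cullin ligases, had 7 and 1 of 9 (2.07). Its Cops6 was at 193 and 171 FPKM in the labelled Btg4-/- libraries, against 17.1 and 15.4 FPKM in wild type (log2 change 3.41, SE 0.185, adjusted p = 1.30e-08). By contrast Cops8 was lower at 213 and 194 FPKM in the labelled Btg4-/- libraries, against 320.3 and 360.1 FPKM in wild type (log2 change -0.74, SE 0.133, adjusted p = 4.25e-04). Tubulins had 8 and 1 of 12 (1.90), with Tuba4a at 138 and 112 FPKM in the labelled Btg4-/- libraries, against 16.2 and 15.5 FPKM in wild type (log2 change 2.90, SE 0.144, adjusted p = 7.00e-09). Leaving out tubulins above their interval left 5 tested, of which 3 were higher and 1 lower. The 3 alpha-tubulins Tuba1a, Tuba1b and Tuba1c did not pass, with changes of -0.29, 0.06 and -0.35.

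**Figure D3:**
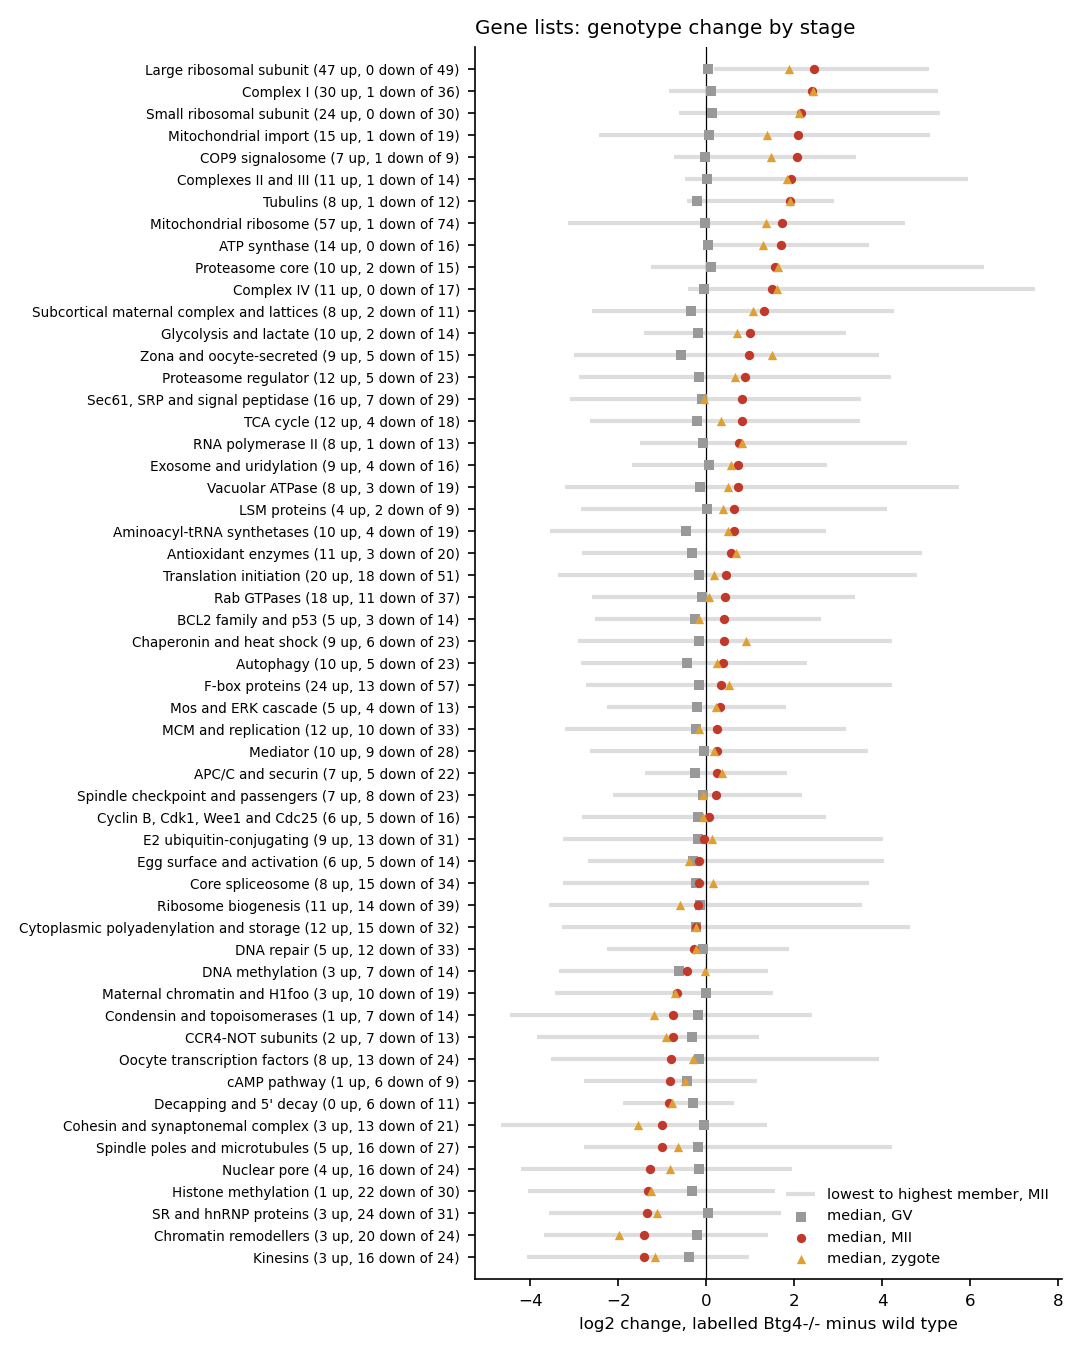
Median log2 change (labelled Btg4-/- minus wild type) of the members of each gene list of 9 or more members at GV (grey squares), MII (red circles) and zygote (yellow triangles); grey bars span the lowest to the highest member at MII, and the counts give members called at MII. MII medians run from 2.44 (large ribosomal subunit) at the top to -1.42 (kinesins) at the bottom, and GV medians lie between -0.61 and 0.14.

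In the lists of the egg's own structures and secreted factors more members were higher than lower, while the summed level of each list was a smaller share of FPKM. The total that these shares divide by was larger in the labelled Btg4-/- libraries. In the subcortical maternal complex and cytoplasmic lattices, which the embryo needs for its first divisions, 8 of 11 were higher and 2 lower (median 1.32). Padi6, the lattice protein, was at 1825 and 1767 FPKM in the labelled Btg4-/- libraries, against 227 and 182 FPKM in wild type (log2 change 3.13, SE 0.135, adjusted p = 2.60e-09), against 65.3 and 56.5 FPKM in labelled Btg4-/- and 68.1 and 59.99 FPKM in wild type at GV, and Ooep at 1059 and 1030 FPKM in the labelled Btg4-/- libraries, against 184 and 172 FPKM in wild type (log2 change 2.54, SE 0.123, adjusted p = 5.79e-09). Zbed3 was lower at 1032 and 946 FPKM in the labelled Btg4-/- libraries, against 5564 and 6301 FPKM in wild type (log2 change -2.58, SE 0.166, adjusted p = 5.79e-08) and was the fourth most abundant mRNA over the 4 libraries. Summed, the list made 1.868% and 1.944% of FPKM in labelled Btg4-/- MII oocytes, against 2.174% and 2.255% in wild type. In FPKM the sum was 8916 and 9179 in the labelled Btg4-/- libraries, against 7773 and 8567 in wild type. In the list of zona and oocyte-secreted genes 9 of 15 were higher and 5 lower (median 0.97). Zp3, a zona pellucida glycoprotein, was at 772 and 697 FPKM in the labelled Btg4-/- libraries, against 166 and 153 FPKM in wild type (log2 change 2.20, SE 0.144, adjusted p = 6.92e-08). By contrast the growth factor Gdf9 was lower at 942 and 838 FPKM in the labelled Btg4-/- libraries, against 1894 and 2023 FPKM in wild type (log2 change -1.14, SE 0.119, adjusted p = 4.14e-06). Gdf9 was also lower at GV, with 531 and 446 FPKM in labelled Btg4-/- and 1005 and 909 FPKM in wild type. Bmp15, its partner, was at 1185 and 1208 FPKM in the labelled Btg4-/- libraries, against 1594 and 1648 FPKM in wild type (log2 change -0.44, SE 0.131, adjusted p = 0.013), and missed the threshold when labelled Btg4-/- library 1 (0.0626) or wild-type library 2 (0.0664) was left out. The germline transcription factor Figla was at 77.4 and 71.7 FPKM in the labelled Btg4-/- libraries, against 4.66 and 3.27 FPKM in wild type (log2 change 3.94, SE 0.368, adjusted p = 1.57e-06). Its GV values were 6.33 and 4.33 FPKM in labelled Btg4-/- and 14.9 and 15.8 FPKM in wild type. The zona and secreted list summed to 1.623% and 1.534% of FPKM in labelled Btg4-/- MII oocytes, against 2.045% and 1.945% in wild type. Its sums in FPKM were 7743 and 7243, against 7312 and 7390 in wild type. With every gene whose FPKM lay above its interval left out, 3 members of each list were tested, of which 1 was higher and 1 lower in the first list and 1 higher and 2 lower in the second.

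Among lists of nuclear RNA factors, 2 had mostly lower members. SR and hnRNP splicing regulators had 3 higher and 24 lower of 31 (median -1.34). Hnrnpa2b1 was at 4.31 and 3.88 FPKM in the labelled Btg4-/- libraries, against 59.96 and 58.9 FPKM in wild type (log2 change -3.57, SE 0.251, adjusted p = 1.28e-07). Hnrnpf was at 34.3 and 36.4 FPKM in the labelled Btg4-/- libraries, against 288 and 325 FPKM in wild type (log2 change -3.08, SE 0.134, adjusted p = 2.74e-09). The higher members included Srsf1 (12.9 and 16.3 FPKM against 3.79 and 3.7 FPKM in wild type; log2 change 1.70, SE 0.190, adjusted p = 7.67e-06). The nuclear pore had 4 and 16 of 24 (-1.27), or -0.78 with changes corrected for coding length, with Nup153 at 1.11 and 1.42 FPKM in the labelled Btg4-/- libraries, against 28.6 and 30.6 FPKM in wild type (log2 change -3.76, SE 0.235, adjusted p = 4.66e-08). By contrast the core spliceosome had 8 and 15 of 34 (-0.16), a median that was 0.16 in the zygote. Mediator had 10 and 9 of 28, ribosome biogenesis 11 and 14 of 39, and RNA polymerase II 8 and 1 of 13.

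Both lists of chromatin regulators had more lower than higher members. Histone methylation enzymes and Polycomb proteins had 1 higher and 22 lower of 30 (median -1.31), and ATP-dependent remodellers 3 and 20 of 24 (-1.40). The median remodeller was at 1.07 FPKM in labelled Btg4-/-, close to the level threshold, and 5.62 in wild type. Where a member reached 1 FPKM only in wild type, its direction is in part given by the choice of members. Ezh2, the methyltransferase of Polycomb complex 2, was at 13.9 and 19.7 FPKM in the labelled Btg4-/- libraries, against 218 and 385 FPKM in wild type (log2 change -4.05, SE 0.331, adjusted p = 4.84e-07). Suz12 was at 4.99 and 8.64 FPKM in the labelled Btg4-/- libraries, against 72 and 113 FPKM in wild type (log2 change -3.58, SE 0.281, adjusted p = 3.28e-07). Their partner in the core, Eed, was at 46.1 and 40.4 FPKM in the labelled Btg4-/- libraries, against 43.6 and 37.4 FPKM in wild type and did not pass (log2 change 0.09, SE 0.135, adjusted p = 0.609). Arid1a, of the BAF remodelling complex, was at 1.52 and 1.89 FPKM in the labelled Btg4-/- libraries, against 32.2 and 34.8 FPKM in wild type (log2 change -3.67, SE 0.219, adjusted p = 3.11e-08). Chd4, of the NuRD complex, was at 1.26 and 2.78 FPKM in the labelled Btg4-/- libraries, against 20.8 and 29.1 FPKM in wild type (log2 change -3.13, SE 0.329, adjusted p = 4.43e-06). The higher members were Suv39h1 (12.4 and 7.62 FPKM against 2.74 and 2.46 FPKM in wild type) among the methylation enzymes and Smarcd2 (363 and 376 FPKM against 136 and 143 FPKM in wild type), Smarcb1 (66.2 and 67.4 FPKM against 34 and 35.5 FPKM in wild type) and Chd2 (1.21 and 1.97 FPKM against 0.163 and 0.202 FPKM in wild type) among the remodellers. Chd2 missed the threshold without labelled Btg4-/- library 2 (adjusted p = 0.0521) and Smarcb1 with quantile normalization (0.114). Corrected for coding length, the 2 list medians were -0.55 and -0.50, and 14 of 29 and 11 of 24 members were lower.

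Genes that act on chromosomes and the spindle were lower in part. Cohesin and the synaptonemal complex had 3 higher and 13 lower of 21 (median -1.0), condensin and topoisomerases 1 and 7 of 14 (-0.75), and kinesins 3 and 16 of 24 (-1.42). Spindle pole and microtubule factors had 5 and 16 of 27 (-1.01). Corrected for coding length, the 4 list medians were -0.48, -0.04, -0.87 and -0.25, and 8 of 21 genes of cohesin and the synaptonemal complex were lower. The median member of that list was at 0.728 FPKM in labelled Btg4-/- and 3.80 in wild type. Most of its members thus reached 1 FPKM only in wild type, and their direction is in part given by the choice of members. The median kinesin, at 1.11 and 5.69 FPKM, was also close to the threshold in labelled Btg4-/-. Smc4, the ATPase shared by both condensins, was at 3.0 and 4.88 FPKM in the labelled Btg4-/- libraries, against 62.5 and 86 FPKM in wild type (log2 change -3.94, SE 0.278, adjusted p = 1.32e-07). At GV it was at 1.05 and 2.2 FPKM in labelled Btg4-/- and 2.09 and 1.81 FPKM in wild type. Kif23, the kinesin of the central spindle, was at 2.7 and 5.88 FPKM in the labelled Btg4-/- libraries, against 81.7 and 86.8 FPKM in wild type (log2 change -4.08, SE 0.257, adjusted p = 4.97e-08). Smc3, the cohesin ATPase, was at 0.603 and 2.21 FPKM in the labelled Btg4-/- libraries, against 24.4 and 27.5 FPKM in wild type (log2 change -3.57, SE 0.315, adjusted p = 9.48e-07). At GV Kif23 was at 5.97 and 4.4 FPKM in labelled Btg4-/- and 10.02 and 10.4 FPKM in wild type. Smc3 was then at 1.17 and 1.88 FPKM in labelled Btg4-/- and 1.38 and 1.61 FPKM in wild type. Haus1, of the augmin complex that nucleates microtubules on microtubules, was higher (54.1 and 55.5 FPKM against 1.6 and 2.45 FPKM in wild type; log2 change 4.22, SE 0.534, adjusted p = 2.28e-05), as was the condensin II subunit Ncaph2 (26.6 and 22.7 FPKM against 2.95 and 4.91 FPKM in wild type; log2 change 2.40, SE 0.290, adjusted p = 1.50e-05).

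The list of CCR4-NOT genes, the complex on which BTG4 acts, had 2 higher and 7 lower of 13 (15.4% and 53.8%, median -0.76). The deadenylase Cnot7 was at 36.7 and 43.7 FPKM in the labelled Btg4-/- libraries, against 70.7 and 81.6 FPKM in wild type (log2 change -0.91, SE 0.122, adjusted p = 3.95e-05). Its GV values were 667 and 708 FPKM in labelled Btg4-/- and 495 and 574 FPKM in wild type. The deadenylase Cnot6l was at 25.4 and 31.1 FPKM in the labelled Btg4-/- libraries, against 249 and 266 FPKM in wild type (log2 change -3.15, SE 0.162, adjusted p = 8.56e-09). By contrast Cnot6 (9.64 and 7.03 FPKM against 10.04 and 8.47 FPKM in wild type) and the scaffold Cnot1 (3.77 and 6.61 FPKM against 4.89 and 4.42 FPKM in wild type) did not pass. The list also holds Ccrn4l, which encodes nocturnin, a relative of the CCR4 nucleases that is not a subunit of the complex, at 6.13 and 5.0 FPKM in the labelled Btg4-/- libraries, against 86.5 and 99.9 FPKM in wild type (log2 change -3.85, SE 0.149, adjusted p = 1.12e-09). The subunit gene with the largest rise was Rqcd1, also called Cnot9 (18.4 and 22.2 FPKM against 8.47 and 7.91 FPKM in wild type; log2 change 1.21, SE 0.158, adjusted p = 3.05e-05). Decapping and 5′ decay factors had 0 higher and 6 lower of 11 (-0.85, or -0.31 with the length correction), including the decapping activator Dcp1a (13.4 and 14.9 FPKM against 43.8 and 51.9 FPKM in wild type; log2 change -1.69, SE 0.133, adjusted p = 3.39e-07) and the translational repressor Lsm14b (280.5 and 313 FPKM against 682 and 796 FPKM in wild type; log2 change -1.31, SE 0.140, adjusted p = 5.13e-06). The decapping enzyme gene Dcp2 was at 13.1 and 19 FPKM in the labelled Btg4-/- libraries, against 16.1 and 15.3 FPKM in wild type and did not pass (log2 change 0.01, SE 0.185, adjusted p = 1). Exosome and uridylation genes leaned the other way, 9 higher and 4 lower of 16 (0.72).

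Of the 4 other BTG/TOB adaptors measured, Tob1 was higher (7.38 and 7.87 FPKM against 2.18 and 2.52 FPKM in wild type; log2 change 1.36, SE 0.248, adjusted p = 4.61e-04) and Btg1 lower (2.0 and 1.55 FPKM against 8.26 and 7.12 FPKM in wild type; log2 change -1.65, SE 0.256, adjusted p = 1.28e-04). Tob2 and Btg2 did not pass, with changes of -0.55 and -0.79, but passed as lower with median-of-ratios scaling (-0.66 and -0.88) and corrected for coding length (-0.78 and -1.35). Among genes of cytoplasmic polyadenylation and mRNA storage 12 were higher and 15 lower of 32. Of the 23 tested with genes above their interval left out, 7 were higher and 13 lower. Zar1l, an RNA-binding protein of stored maternal mRNA, was at 838 and 746 FPKM in the labelled Btg4-/- libraries, against 33.9 and 27.6 FPKM in wild type (log2 change 4.65, SE 0.273, adjusted p = 2.70e-08). By contrast its paralogue Zar1 was at 3196 and 2742 FPKM in the labelled Btg4-/- libraries, against 2414 and 2520 FPKM in wild type and did not pass (log2 change 0.26, SE 0.160, adjusted p = 0.192). Cpsf2, of the complex that reads the polyadenylation signal, was lower at 5.6 and 5.43 FPKM in the labelled Btg4-/- libraries, against 55.8 and 69.7 FPKM in wild type (log2 change -3.28, SE 0.168, adjusted p = 8.46e-09).

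Translation initiation factors had 20 higher and 18 lower of 51 (39.2% and 35.3%), near the shares over all members. Eif3m was at 159.5 and 198 FPKM in the labelled Btg4-/- libraries, against 3.21 and 8.94 FPKM in wild type (log2 change 4.79, SE 0.334, adjusted p = 1.18e-07). By contrast Eif2s2, the beta subunit of the factor that carries initiator tRNA, was at 108 and 89.5 FPKM in the labelled Btg4-/- libraries, against 1021 and 1021 FPKM in wild type (log2 change -3.36, SE 0.135, adjusted p = 1.42e-09). At GV Eif2s2 was at 53.1 and 41.5 FPKM in labelled Btg4-/- and 32.9 and 29.6 FPKM in wild type. Among calmodulin genes, Calm2 was at 978 and 1019 FPKM in the labelled Btg4-/- libraries, against 71 and 50.6 FPKM in wild type (log2 change 4.04, SE 0.139, adjusted p = 5.41e-10). Calm3 was higher too (40.01 and 45 FPKM against 7.62 and 4.93 FPKM in wild type; log2 change 2.60, SE 0.217, adjusted p = 5.66e-07).

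The kinases of the MII arrest differed by gene as well. Map2k2 (MEK2) was higher (84.6 and 71.1 FPKM against 18.6 and 24.1 FPKM in wild type; log2 change 1.82, SE 0.211, adjusted p = 1.07e-05) and Map2k1 (MEK1) lower (21.6 and 20.7 FPKM against 95.4 and 112 FPKM in wild type; log2 change -2.24, SE 0.135, adjusted p = 3.44e-08). Mapk3 (ERK1) was higher (358 and 318 FPKM against 98.3 and 105 FPKM in wild type; log2 change 1.72, SE 0.165, adjusted p = 2.02e-06). Mos, which activates this cascade, was at 241 and 227 FPKM in the labelled Btg4-/- libraries, against 333 and 355 FPKM in wild type and did not pass (log2 change -0.55, SE 0.222, adjusted p = 0.0526). It passed as lower with median-of-ratios scaling (adjusted p = 0.0230), quantile normalization (0.00247), the length correction (0.00673) and the fit on the MII libraries alone (0.00351). Cyclins and kinases of M-phase entry had 6 higher and 5 lower of 16 (37.5% and 31.2%), near the 35.2% and 28.2% over all members. Among them Ccnb2 was lower (8.29 and 10.8 FPKM against 71.2 and 74.2 FPKM in wild type; log2 change -2.82, SE 0.266, adjusted p = 1.71e-06) and Cdk1 higher (10.6 and 8.96 FPKM against 3.42 and 2.08 FPKM in wild type; log2 change 1.54, SE 0.237, adjusted p = 1.17e-04). Genes of the cAMP pathway that holds prophase arrest had 1 higher and 6 lower of 9 (-0.82), the most abundant being Gnas, the stimulatory G protein, at 87.8 and 91.3 FPKM in the labelled Btg4-/- libraries, against 519 and 748 FPKM in wild type (log2 change -2.79, SE 0.223, adjusted p = 4.00e-07).

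Most abundant mRNAs differed, as did most members of any level. Of 813 genes with a mean of 100 FPKM or more over the 4 MII libraries, 421 were higher, 225 lower and 167 did not pass. Over all 10033 members 35.2% were higher and 28.2% lower, so only the share higher was clearly larger among the abundant genes. Among the 10 most abundant, the deubiquitinase gene Uchl1 was at 7406 and 6782 FPKM in the labelled Btg4-/- libraries, against 1467 and 1470 FPKM in wild type (log2 change 2.27, SE 0.162, adjusted p = 1.47e-07). Ubb, a polyubiquitin gene, was at 4022 and 3728 FPKM in the labelled Btg4-/- libraries, against 1209 and 1264 FPKM in wild type (log2 change 1.65, SE 0.121, adjusted p = 1.86e-07). Khdc1b was slightly lower, at 2739 and 2584 FPKM in the labelled Btg4-/- libraries, against 3919 and 3954 FPKM in wild type (log2 change -0.56, SE 0.101, adjusted p = 4.19e-04). Ldhb, a lactate dehydrogenase subunit, was at 3133 and 2958 FPKM in the labelled Btg4-/- libraries, against 2830 and 2961 FPKM in wild type (log2 change 0.07, SE 0.137, adjusted p = 0.711). The others of the 10 were the ribosomal RNA precursor Rn45s, Lars2, Zbed3, Psma7, Zar1 and the securin gene Pttg1. The smallest changes among the 813 were those of Lsm7, Naa20, Mdm4, Spin1 and Fbxl6, all within 0.02 of 0. Spin1, a chromatin reader of the oocyte, was at 574 and 581 FPKM in the labelled Btg4-/- libraries, against 589 and 575 FPKM in wild type (log2 change -0.01, SE 0.112, adjusted p = 0.976). With quantile normalization Spin1, Lsm7 and Mdm4 passed as lower (-0.68, -0.65 and -0.44), and corrected for coding length Spin1, Lsm7 and Naa20 did (-0.36, -0.69 and -0.51).

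The genotype change at MII differed from that at GV for 5230 of 12311 genes (42.5%). Of these, 62.4% had a more positive change at MII, a share that was 52.1% with median-of-ratios scaling and 48.3% with quantile normalization. List medians at GV lay near 0: 0.05 for the large ribosomal subunit, 0.12 for complex I, 0.03 for SR and hnRNP proteins and -0.31 for histone methylation. In the zygote, which shares no library with MII, they were 1.89, 2.42, -1.12 and -1.26. Zygotic medians of kinesins, nuclear pore and chromatin remodellers were -1.16, -0.83 and -1.98.

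The levels behind these changes differed between lists. The median member of the large ribosomal subunit was at 142 FPKM in labelled Btg4-/- MII oocytes and 24.7 in wild-type MII, with 269 in labelled Btg4-/- GV and 240 in wild-type GV. For COP9 the 4 values, in the same order, were 120.3, 16.2, 34.4 and 35.1 FPKM. For the subcortical maternal complex they were 829, 178, 60.9 and 78.3. Among the lower lists, SR and hnRNP proteins had 5.62, 19.1, 7.45 and 7.15 FPKM, and chromatin remodellers 1.07, 5.62, 0.965 and 1.29. The nuclear pore had 12.5, 36.1, 27.8 and 31.9. The labelled Btg4-/- MII median was thus the lowest of the 4 for SR and hnRNP proteins, the nuclear pore, kinesins and histone methylation.

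**Figure D4:**
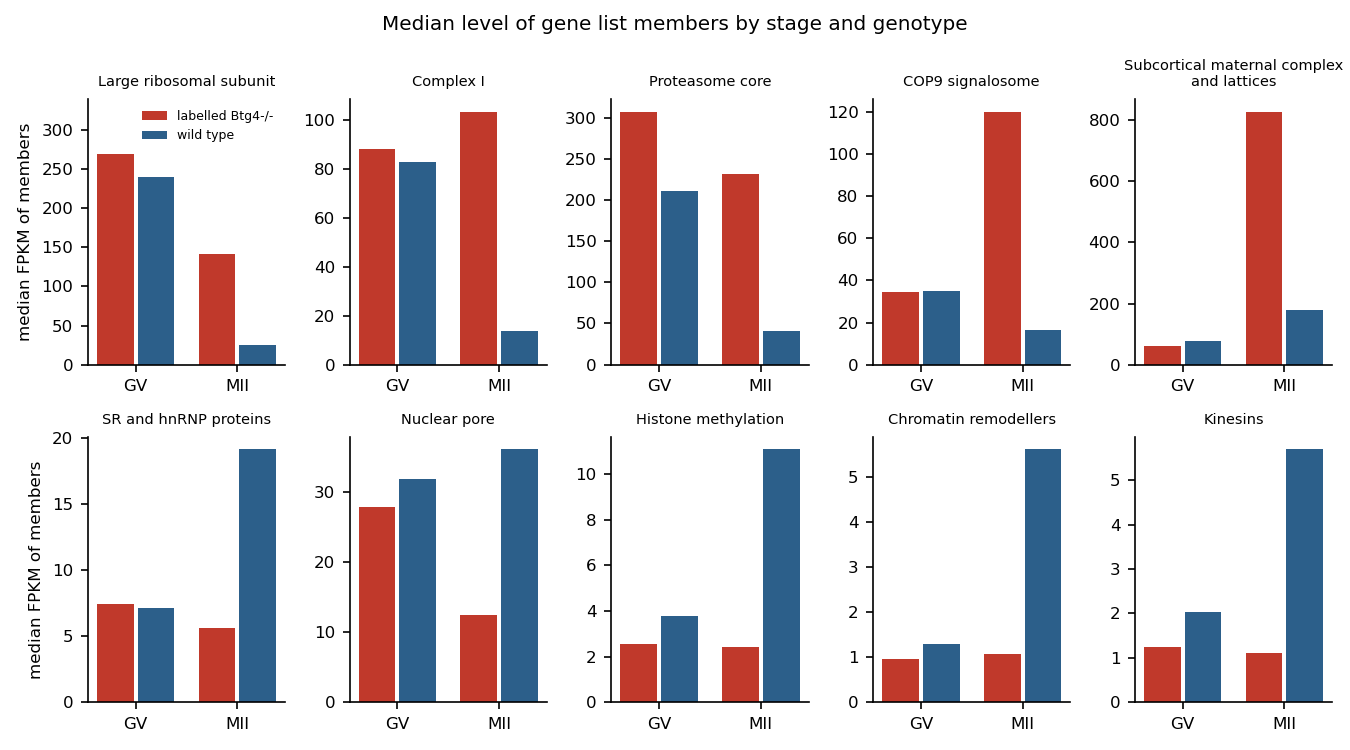
Bars give the median FPKM of the members of 10 gene lists at GV and MII, in labelled Btg4-/- (red) and wild-type (blue) oocytes; each member's level is the mean of 2 libraries and each panel has its own axis from 0. In the upper row the red MII bar stands above the blue one, and in the lower row below it, while the GV bars differ less.

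The direction of change went with level and transcript length. Members were divided into 4 equal bins by their wild-type GV level. The GV libraries do not enter the log2 change at MII. They do enter the spread and the mean level used for its p-values, so the bins are not independent of the calls. From the lowest to the highest bin the share called higher was 18.9%, 27.2%, 40.9% and 53.6%, and the share called lower 31.4%, 28.9%, 26.6% and 25.6%. Transcript features came from the GENCODE M21 annotation on GRCm38, in which each gene was represented by the transcript with the longest coding sequence. By bin of coding length, short to long, 48.8%, 42.8%, 33.1% and 15.5% were higher and 16.3%, 21.8%, 28.9% and 48.1% lower. The median coding length was 1032 bases for the higher genes, 1794 for the lower and 1354 for those not called. These shares are descriptions over genes, which are not independent. The order of the bins was the same with median-of-ratios scaling, and with quantile normalization too, except that the share lower by GV level was then 34.0%, 30.7%, 31.3% and 32.5%. FPKM divides by transcript length, and the part of that division in these shares was not tested.

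The 3′ untranslated region (3′ UTR) differed as well. Its median length was 560 bases for higher and 1244 for lower genes, and its median A+T content 53.6% and 59.2%. The cytoplasmic polyadenylation element (CPE) is the U-rich sequence bound by CPEB1, through which dormant oocyte mRNAs gain poly(A) tails in maturation. It was searched as TTTTAT or TTTTAAT, on the sense strand, in the last 100 bases of 3′ UTRs of at least 100 bases. A match was found for 394 of 3031 higher genes (13.0%), 696 of 2658 lower genes (26.2%) and 639 of 3192 not called (20.0%). It was found in 18% of the 18237 such 3′ UTRs of all matched genes. Seen from the motif, 22.8% of the 1729 members with a match were higher and 40.3% lower, against 36.9% and 27.4% of the 7152 without one.

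Within 4 bins of 3′ UTR A+T content the share called lower was 29.6%, 38.4%, 42.1% and 44.4% with a CPE match and 13.7%, 21.5%, 33.5% and 44.5% without, so the gap in the share lower closed in the most A+T-rich bin. The share called higher in that bin was 17.4% with a match and 23.4% without. The polyadenylation signal AATAAA stood in the last 100 bases of 59.7% of higher and 71.1% of lower genes (63.7% of all), and the variant ATTAAA, which can overlap a CPE match, in 21.3% and 22.0% (20.2% of all). The AU-rich pentamer ATTTA was in 18.5% and 28.8% (22.4% of all), and the Pumilio motif TGTANATA in 4.19% and 6.28% (4.35% of all). A match is a string of letters in an annotated transcript, not a shown site, and alternative 3′ ends of oocyte mRNAs were not analysed.

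**Figure D5:**
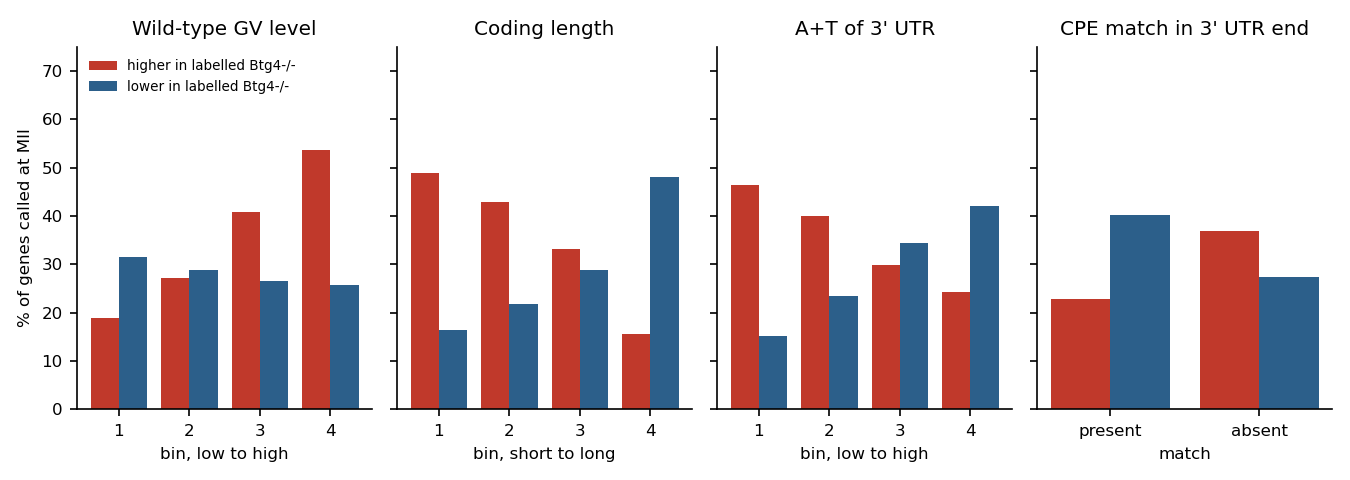
Percent of genes called higher (red) and lower (blue) at MII, by bin of wild-type GV level, of coding length and of 3′ UTR A+T content, and by presence of a CPE match in the last 100 bases of the 3′ UTR. Red bars fall and blue bars climb with length and A+T content, and blue exceeds red where a CPE match is present (40.3% against 22.8%).

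Windows of 30 bases show the 3′ ends of the genes with the largest falls and rises, from GENCODE M21 transcripts on GRCm38, the CPE match in capitals. Of the 8 searched among the 10 largest falls, 4 had a match, which are printed first with Btg4 itself.
Depdc7, chr2:104721784-104721813 (minus strand): taataaaaaaatTTTTATatgtgtcaaaaa
Dbt, chr3:116549889-116549918 (plus strand): atgtatctactaTTTTATaatttgattttt
Sycp3, chr10:88473173-88473202 (plus strand): tttgtttgtttgTTTTAATagttgttctct
Top1, chr2:160722702-160722731 (plus strand): tcatgaattcccTTTTAATcaactgtaggt
Btg4, chr9:51119797-51119826 (plus strand): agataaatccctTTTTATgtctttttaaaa
Depdc7 and Dbt hold TTTTAT and Sycp3 and Top1 TTTTAAT, 12 to 75 bases from the annotated 3′ end. Of the 6 rises shown that could be searched 1 had a match, Psmb1, whose TTTTAAT overlaps its AATAAA signal.
Psmb1, chr17:15475029-15475058 (minus strand): gtttttgcttttTTTTAATaaacttctgtt
For rises without a CPE match the capitals mark the polyadenylation signal.
Cox7c, chr13:86044819-86044848 (minus strand): gaaaaaattgtaAATAAActaatgacataa
Psmb7, chr2:38588043-38588072 (minus strand): tcaattaaaataAATAAAtaaaaagacaaa
Sdhd, chr9:50596357-50596386 (minus strand): ctctgaaaaaacaaaatttttaAATAAAat
Atp6v0c, chr17:24163868-24163897 (minus strand): ccagctgtgtccAATAAAagttctcggatg
Of the other genes with the largest changes, Pdcd2, Tmem126a and Hba-a1 had annotated 3′ UTRs under 100 bases and were not searched, and Rnu12 and Snora47 had no matched transcript.

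Markers of other cells were at low levels in the MII libraries, beside the haemoglobin genes given above. In labelled Btg4-/- MII oocytes the 18 granulosa and cumulus markers summed to 5.47 and 5.55 FPKM, against 14.6 and 9.16 FPKM in wild type and 85.1 to 100.4 at GV. Of the 4 that reached the level threshold, 0 were higher and 3 lower, Cyp19a1 (aromatase, 0.749 and 0.559 FPKM against 4.19 and 3.24 FPKM in wild type), Inha (0.470 and 0 FPKM against 2.46 and 0.834 FPKM in wild type) and Ptx3 (listed at 0 in both labelled Btg4-/- libraries against 1.38 and 0.697 FPKM in wild type). These 3 reached a mean of 1 FPKM only in wild type, so their direction is in part given by the choice of members. The 8 sperm markers summed to 4.88 and 8.22 FPKM in labelled Btg4-/- and 0.911 and 0.668 in wild type. The protamine gene Prm2 made up part of this (4.38 and 5.1 FPKM against 0.911 and 0 FPKM in wild type), and other markers the rest. At GV the 8 summed to 10.5 and 14.3 FPKM in labelled Btg4-/- and 1.90 and 4.40 in wild type. Prm2 in turn reached a mean of 1 FPKM only in labelled Btg4-/-. Inha missed the threshold without labelled Btg4-/- library 2 or wild-type library 1 (adjusted p = 0.123 and 0.157) and Prm2 without wild-type library 2 (0.0805). The 4 markers of the 2-cell embryo stayed under 2.01 FPKM in sum. The part of these markers in the lists above was not tested.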

How the data were processed

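The deposited values are gene-level FPKM with a lower and an upper bound per locus, which the authors made from the reads with TopHat, Cufflinks and CASAVA 1.8 on mm9, per the submitters' processing notes. No other tool version, annotation or strand setting is given in the sources used here, so genes that share reads with near-identical copies or antisense genes are uncertain. FPKM is relative to all mapped fragments of a library and keeps no count. Depth was estimated from the width of the deposited intervals, and it limits precision most for low genes.

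Loci of 1 symbol were summed (260 symbols had several), which left 23309 symbols. Genes with a mean of 1 FPKM or more in at least 1 of the 8 groups (12311) were fitted on the log2(FPKM + 1) scale in R 4.3.3 by limma 3.58.1, with 1 mean per genotype and stage over 16 libraries, 8 residual degrees of freedom and a mean-dependent variance prior. The contrasts were labelled Btg4-/- minus wild type at MII and the difference of that change from the change at GV. P-values were adjusted by Benjamini-Hochberg over all genes fitted, with a threshold of 0.05. All adjusted p-values printed come from this limma fit or a named alternative. A fold change on this scale understates that of low genes. Tables were handled in Python 3.11.15 with pandas 2.3.3, and the fit was tested on simulated data.

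Named genes were Btg4; the 10 largest rises and 10 largest falls at 10 FPKM or more whose libraries did not overlap, gene models (such as Rik and Gm symbols) left out; in each list up to 3 called members each way and the most abundant member that did not pass, or any member of a list of 15 or fewer; the 10 most abundant genes; and the 5 least changed of those at 100 FPKM or more. A few genes that met the rule are not reported here. The members, the lists and the tests were chosen with earlier results of these data known. Alternatives were other pseudocounts and filters, median-of-ratios scaling, quantile normalization, removal of the trend on coding length within each library (called the length correction), fewer libraries in the fit, the replicate number as a block and each library left out in turn.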

Additional observations from a re-analysis of the deposited data

Results flagged for a closer look

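The genotype change at MII differed from the genotype change at GV, by the interaction term of the limma fit, for 5230 of 12311 genes. Among the genes with the largest changes at MII, the change at MII minus that at GV was positive on the log2 scale for 8: 8.58 for Cox7c, 6.89 for Pdcd2, 6.34 for Atp6v0c, 6.21 for Tmem126a, 5.94 for Psmb7, 5.93 for Sdhd, 5.23 for Psmb1 and 5.07 for Rpsa. The difference was negative for 9: -5.92 for Hba-a1, -5.28 for Beta-s, -4.92 for Depdc7, -4.47 for Dbt, -4.27 for Top1, -4.23 for Fastkd1, -3.99 for Sycp3, -3.51 for Cobll1 and -3.47 for Actn4. These genes were picked for their change at MII, which enters the difference, so the values are a description. Those of Tmem126a, Pdcd2, Atp6v0c, Hba-a1, Beta-s, Dbt, Cobll1 and Sycp3, each with a library at or near 0 FPKM in its lower group at MII, depend on the pseudocount.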

How the results depend on the processing

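Over the alternatives that kept all 4 MII libraries, the genes called higher numbered 2875 to 3616 (3585 as reported) and those called lower 2508 to 3329 (2870). With 1 MII library left out in turn they numbered 3009 to 3108 and 2391 to 2692. Genes whose change differed between MII and GV numbered 4312 to 5534 (5230), and 4471 to 4908 with 1 GV or MII library left out. With the replicate number as a replicate block, limma called 3592 higher, 2830 lower and 5192 for the difference, and Btg2, Tob2 and Mos passed as lower. Same-numbered libraries did not deviate together (correlation of their deviations 0.0211 at MII and -0.0102 at GV), so no pairing by number was visible. A correlation near 0 cannot tell whether same-numbered samples were collected or prepared together. Scaling moved the balance of directions. Higher genes made up 55.5% of those called at MII as reported, 52.2% with median-of-ratios scaling and 48.2% with quantile normalization, and the median change of all genes was 0.09, 0.03 and -0.00180.

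Of the genes named in the text, 109 were called. With quantile normalization 106 of them stayed called, and Dnmt3l, Smarcb1 and Rn45s (a change of 0) no longer passed. Mdm4, a gene that had not passed, reversed in sign to -0.44 and passed as lower. Another 9 that had not passed became called, among them Atp5b, Psma1, Pttg1, Tuba1a, Tuba1c and Tob2, all as lower. With the length correction Btg2, Tob2, Lsm7, Mos, Naa20, Psma1, Pttg1 and Spin1 also became called, all as lower, Cnot1 passed as higher (1.23), Polr2a and Sdha no longer passed, and Itpr1 turned from lower to 0.0283. Quantile normalization lowered the list medians of the 19S regulator to 0.47 and of the tricarboxylic acid cycle to 0.43. The causes were not tested. The following alternatives were added after seeing the data, because the deposited FPKM often lay above its interval. The interval's midpoint gave 3594 higher and 2866 lower, and leaving out such genes gave 2875 and 2587, with fewer genes tested. At these depths a change in genes of a few FPKM may be missed, and with 2 libraries a group the spread rests on the fit over all groups.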

Other observations

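DNA methylation genes and their readers were divided, with 3 higher and 7 lower of 14. Dnmt1, the maintenance methyltransferase, was at 16.4 and 18.7 FPKM in the labelled Btg4-/- libraries, against 65.2 and 76.5 FPKM in wild type (log2 change -1.95, SE 0.244, adjusted p = 2.07e-05). Tet3, the dioxygenase that oxidizes methylcytosine in the zygote, was at 5.88 and 6.08 FPKM in the labelled Btg4-/- libraries, against 68.6 and 70.2 FPKM in wild type (log2 change -3.33, SE 0.171, adjusted p = 8.46e-09). Dppa3, also called Stella, which protects the maternal genome from that oxidation, was lower by less, at 2022 and 1986 FPKM in the labelled Btg4-/- libraries, against 2792 and 3119 FPKM in wild type (log2 change -0.56, SE 0.0990, adjusted p = 3.82e-04). In both Dnmt1 and Tet3 the groups were wide apart, whereas Dnmt3a did not pass (4.82 and 8.45 FPKM against 5.36 and 10.02 FPKM in wild type). Zfp57, which guards imprints, was higher (592 and 635 FPKM against 259.6 and 256 FPKM in wild type), as were Dnmt3l (89.6 and 69 FPKM against 46.2 and 44.5 FPKM in wild type) and Mbd3 (13.6 and 19.3 FPKM against 7.5 and 4.0 FPKM in wild type). Mbd3 missed the threshold without labelled Btg4-/- library 2 (adjusted p = 0.0834) and without wild-type library 2 (0.106), and Dnmt3l with quantile normalization (0.0951).

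Histone chaperones and maternal chromatin genes had 3 higher and 10 lower of 19. The nucleoplasmins split, with Npm2, the oocyte form that remodels sperm chromatin, at 885 and 1106 FPKM in the labelled Btg4-/- libraries, against 317 and 372 FPKM in wild type (log2 change 1.52, SE 0.159, adjusted p = 4.13e-06). Npm1 was at 17.6 and 18.7 FPKM in the labelled Btg4-/- libraries, against 178 and 238 FPKM in wild type (log2 change -3.43, SE 0.182, adjusted p = 1.06e-08). Oocyte transcription factors had 8 higher and 13 lower of 24. Lhx8, a factor of the primordial follicle, was at 146 and 134 FPKM in the labelled Btg4-/- libraries, against 27.6 and 23.5 FPKM in wild type (log2 change 2.42, SE 0.130, adjusted p = 1.20e-08), and Sall4 at 3.6 and 3.51 FPKM in the labelled Btg4-/- libraries, against 46.9 and 56.6 FPKM in wild type (log2 change -3.53, SE 0.160, adjusted p = 3.58e-09). RNA polymerase II subunits were higher for 8 and lower for 1 of 13. The lower one was the largest subunit, Polr2a, at 1.05 and 1.15 FPKM in the labelled Btg4-/- libraries, against 5.37 and 4.59 FPKM in wild type (log2 change -1.51, SE 0.295, adjusted p = 8.29e-04). Polr2a was at -0.45 with the length correction and no longer passed (adjusted p = 0.187), and 5 subunits were then higher and 2 lower. Quantile normalization gave 5 higher and 3 lower.

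Genes of fertilization and calcium signalling had 6 higher and 5 lower of 14 (42.9% and 35.7%, against 35.2% and 28.2% of all members). Cd9, the tetraspanin that sperm fusion needs, was at 259.8 and 264 FPKM in the labelled Btg4-/- libraries, against 45.1 and 34.1 FPKM in wild type (log2 change 2.71, SE 0.290, adjusted p = 5.26e-06), and Folr4, the egg receptor Juno, at 115 and 101 FPKM in the labelled Btg4-/- libraries, against 42 and 47.6 FPKM in wild type (log2 change 1.25, SE 0.166, adjusted p = 3.41e-05). The calcium release channel Itpr1 was at 0.914 and 0.789 FPKM in the labelled Btg4-/- libraries, against 4.28 and 2.28 FPKM in wild type (log2 change -1.17, SE 0.261, adjusted p = 0.00209), but its change was 0.0283 with the length correction. The calcium pump Atp2a2 was at 23.9 and 23.1 FPKM in the labelled Btg4-/- libraries, against 154 and 161 FPKM in wild type (log2 change -2.69, SE 0.116, adjusted p = 2.64e-09). The aminoacyl-tRNA synthetases had 10 higher and 4 lower of 19, with Rars higher (69.2 and 92.1 FPKM against 10.8 and 11.7 FPKM in wild type) and Tars lower (0.546 and 0.581 FPKM against 17.2 and 17.6 FPKM in wild type). The proton pump of the vacuole had 8 and 3 of 19, with Atp6v1e1 higher (130.5 and 172 FPKM against 27.6 and 21.5 FPKM in wild type) and Atp6v1b2 lower (9.54 and 14.2 FPKM against 114 and 116 FPKM in wild type). The Zfp zinc finger genes had 38 higher and 39 lower of 162, or 23.5% and 24.1%, against 35.2% and 28.2% of all members.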
